A study of Mus musculus with 6 samples.

Results

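Small nucleolar RNAs are short RNAs of the nucleolus, the site of ribosome assembly. Box C/D RNAs (symbols beginning Snord) guide the methylation of ribosomal RNA, box H/ACA RNAs (symbols beginning Snora) guide its conversion of uridine to pseudouridine, and a few of both classes are needed for the cleavage of the ribosomal RNA precursor. In mammals most of them are cut from introns of longer host genes, many of which encode ribosomal proteins or translation factors. Each mature RNA works in a particle with a fixed set of core proteins.

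The genes described here are those with a symbol beginning Snora or Snord followed by a number, measured by probe sets that name that gene alone on Affymetrix Mouse Gene 1.0 arrays. There were 51 such genes, measured by 56 probe sets, among 19938 genes in all. Of the 51, 31 are box C/D and 20 box H/ACA genes. The symbol chose the genes, and the highest mean over all 6 arrays chose the probe set where a gene had more than 1. A further 41 probe sets carry such a symbol together with other genes and were left out.

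Starry-sky tumor-associated macrophages (SS-TAMs) were laser-captured from subcutaneous xenografts of the BL2 line (human Burkitt's lymphoma) in 3 female Balb/c SCID mice once the tumors had reached 1.44 cm2. Germinal center macrophages (GCMs) were captured from 3 female CSF1R EGFP transgenic Balb/c mice immunized with 2 doses of sheep red blood cells. All mice were 6 to 12 weeks old, and 1000 cells per mouse gave 1 array. SS-TAMs were picked by CD68 staining, SCID mice lack mature lymphocytes of their own, and the tumor cells around SS-TAMs are human, so genotype, tissue, immunization and neighboring cells all differ between the groups together and cannot be told apart. The GCM tissue label names the spleen, while their source label names lymph nodes. Levels below are intensities on the linear scale, and each log2 fold change is SS-TAM over GCM, so that a negative value is lower in SS-TAMs.

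The captured material carried transcripts of macrophages and of other cells in different amounts. Of 22 measured core macrophage markers, 16 rose in SS-TAMs and none fell, with summed intensities of 4380 to 5461 in SS-TAMs and 2136 to 2496 in GCMs. The 16 include Cd68, whose staining picked the SS-TAMs, and Csf1r, named in the transgene of the GCM mice. Of 22 T cell markers, 11 were lower and none higher (346 to 466 against 1460 to 1946). Of 19 B cell markers, 2 were lower and none higher (204 to 257 against 277 to 754), and the highest of these sums belonged to GCM replicate 1. In such bulk samples, fewer cells of a type and less RNA per cell cannot be told apart. Of 9 germinal center B cell markers none passed, with 1 lower at an unadjusted p under 0.05 (67 to 75 against 81 to 210), and of 24 cell cycle genes 1 was higher (420 to 538 against 569 to 801). The brightest 1 in 100 probe sets began at lower intensities on the SS-TAM arrays (242 to 284) than on the GCM arrays (614 to 664).

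Most small nucleolar RNA genes were dim on every array and nearly level between the groups. One gene, Snord104, fell in SS-TAMs, 2 genes, Snord15a and Snord52, rose, and 48 of 51 did not pass limma's test (Benjamini-Hochberg adjusted p under 0.05 over all 19938 genes). Among all genes 4.76% were lower and 5.16% higher by the same rule, 9.92% in either direction. The median log2 fold change of the 51 genes was -0.0017, against 0.041 for all genes. Of the 51 genes, 26 had a log2 fold change below 0 and 25 above 0. In 47 the 95% interval of the log2 fold change lay between -1 and 1, which also held for 88.8% of all genes. At an unadjusted p under 0.05 there were 4 genes lower and 3 higher, beside 25.7% of all genes in either direction.

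These intensities set the limits of what could be seen. The mean over all arrays was below 6.6, the median of all genes, in 39 of the 51 genes, and the members had a median of 5.05. Intensities of different probe sets are not on one scale of RNA amount, so dim and bright refer to the signal alone. No detection calls were used, so such values are levels and not absence, and folds near this floor understate changes in RNA. Summed over the 51 genes, intensity was 322, 312 and 298 on the SS-TAM arrays and 371, 518 and 432 on the GCM arrays. Without Snord104 the sums were 317, 306 and 293 against 291, 302 and 311, and the groups overlapped. The spread between arrays of a group was small, with a median within-group SD of 0.10 on the log2 scale against 0.12 for all genes. Values, rounded to 1 decimal, were equal on 2 or more arrays in 45 of the 51 genes and in 13361 of all 19938. Near the floor such a small SD says little about how far the mice differed.

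**Figure D1:**
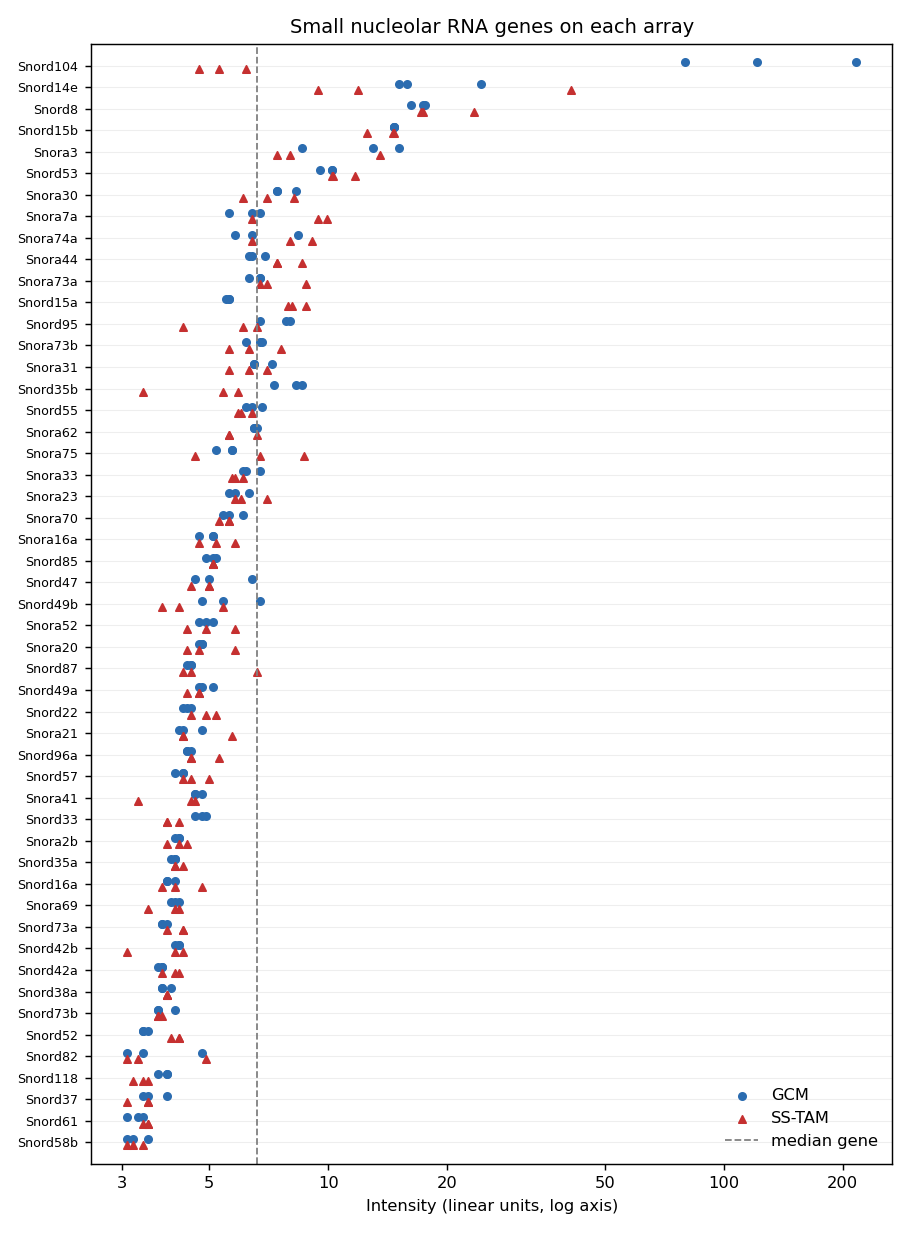
Intensity (linear units, log axis) of the 51 small nucleolar RNA genes, sorted by mean, with 1 point per array for 3 GCM (blue circles) and 3 SS-TAM (red triangles) arrays; the dashed line is the median of all genes, 6.6. Snord104 is the 1 gene with a wide gap between the groups, and 39 genes have a mean left of the line.

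Snord104, a box C/D RNA gene, was at 80, 216 and 121 on the GCM arrays and at 5.3, 6.2 and 4.7 on the SS-TAM arrays. Every GCM array was far above every SS-TAM array, and all SS-TAM values lay below 6.6, the median of all genes. The means were 139 ± 69.9 and 5.4 ± 0.76 (SD, n = 3), with a log2 difference of -4.58 (SE 0.36; limma adjusted p = 0.0021). Because the SS-TAM level is at the floor, the 23.9-fold decrease may understate the change in RNA. It is an estimate and not a lower limit, since the interval of the log2 fold change reached from -5.46 to -3.70. Leaving out any 1 array kept the log2 fold change between -4.92 and -4.20 (adjusted p up to 0.018 from limma). GCM replicate 1, which had the lowest Snord104 value of the GCM arrays, had the highest B cell and the lowest T cell marker sum among them. The T cell marker sums were 1460, 1712 and 1946 on GCM replicates 1, 2 and 3. The highest sum was thus on replicate 3, but the highest Snord104 value on replicate 2. Without GCM replicate 1 the log2 fold change was -4.92. T cell markers fell between the groups in the same direction, and the part of either cell type in this difference was not tested.

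In the RefSeq gene table Snord104 lies inside Gm36220, a non-coding RNA gene that has no probe set of its own named here. The Snord104 probe set cannot tell the small RNA from the RNA of this gene. No sequence of the small RNAs was in the tables used. The starts of non-coding genes that contain members are shown instead, since host genes are known for a terminal oligopyrimidine start, a C followed by further C or T bases, through which growth signals act on translation. Gm36220 and 1110038B12Rik are shown because they contain called members, and Gas5 and Snhg1 as the best known non-coding hosts. Each line gives 30 bases before and 20 bases from the first transcribed base, 5′ to 3′, on RefSeq's GRCm38.p6, with the run of C and T from the first base in capitals where that base is C. Gm36220 contains Snord104, Snhg1 contains Snord22, Gas5 contains Snord47 and 1110038B12Rik contains Snord52.
Gm36220 (chr11:106500885-106500934, plus strand): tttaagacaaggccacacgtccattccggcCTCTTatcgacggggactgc
Snhg1 (chr19:8723457-8723506, plus strand): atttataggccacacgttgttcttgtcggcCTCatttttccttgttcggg
Gas5 (chr1:161035136-161035185, plus strand): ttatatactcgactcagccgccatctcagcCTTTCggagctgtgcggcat
1110038B12Rik (chr17:34952449-34952498, minus strand): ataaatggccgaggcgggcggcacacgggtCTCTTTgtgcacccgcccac
A run of at least 5 such bases, read on the transcribed strand from an annotated start, was found at one or more starts in 6 of the 31 host genes with a start window and in 3.01% of all 27025 genes with one. It was found in 1 of 11 ribosomal protein hosts (9.09%). Snhg1 falls short of it. So do the hosts 2410006H16Rik (a run of 4), Snhg12 and Snhg3 (no run), which contain other members and whose starts are not shown. Gas5 and 1110038B12Rik each have another annotated start, whose first base is not a C and which is not shown, so that their runs depend on which start is used. Annotated starts can be off by some bases, and a run is a description of these letters only.

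Snord15a, a box C/D RNA gene that lies in the ribosomal protein gene Rps3, rose in SS-TAMs. It was at 7.9, 8.1 and 8.8 on the SS-TAM arrays and 5.6, 5.6 and 5.5 on the GCM arrays. The groups did not overlap, and the 3 GCM values were nearly identical. The log2 difference was 0.57 (SE 0.061; limma adjusted p = 0.0054), and the call held without any 1 array (adjusted p up to 0.035). Its neighbor in the same gene, Snord15b, was at 12.5, 14.7 and 14.6 on the SS-TAM arrays and at 14.7 on all 3 GCM arrays, a log2 difference of -0.08 (limma adjusted p = 0.54).

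Snord52, a box C/D RNA gene, was at 4.0, 4.2 and 4.2 in SS-TAMs against 3.5, 3.4 and 3.4 in GCMs. The groups did not overlap, but all 6 values lie near the bottom of the intensity range. The log2 difference was 0.27 (SE 0.051; limma adjusted p = 0.030). The call was lost without SS-TAM replicate 3 or any 1 GCM array (adjusted p of 0.051 to 0.12), after quantile normalization (0.051), after median centring (0.076) and with the replicate block (0.11). When arrays were set to equal levels of core macrophage markers, all genes had a median of -1.44, and Snord15a and Snord52 had log2 values of -0.91 and -1.21, both above that median.

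Of the remaining genes, 4 lay lower on every SS-TAM array than on any GCM array without passing the test, which makes 5 non-overlapping decreases with Snord104. They were named after their values were seen. Snord35b, a box C/D RNA gene, was at 5.9, 5.4 and 3.4 in SS-TAMs and 7.3, 8.3 and 8.6 in GCMs (log2 fold change -0.76, adjusted p = 0.091 from limma). Snord33, from Rpl13a, was at 4.2, 3.9 and 3.9 against 4.8, 4.6 and 4.9 (log2 fold change -0.25, adjusted p = 0.052). It passed after quantile normalization, after median centring, with an intensity trend and robust variances fitted together, and without SS-TAM replicate 1 (adjusted p of 0.029 to 0.049). Snord95 had a log2 difference of -0.42 (adjusted p = 0.20). The fourth gene was Snord118.

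Snora44 was the third gene to lie wholly higher in SS-TAMs, beside Snord15a and Snord52 (log2 fold change 0.25, adjusted p = 0.12 from limma). Among all genes, 11.6% lay wholly lower in SS-TAMs and 18.5% wholly higher. Among the 51 genes, 5 lay wholly lower and 3 wholly higher, and 43 overlapped.

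**Figure D2:**
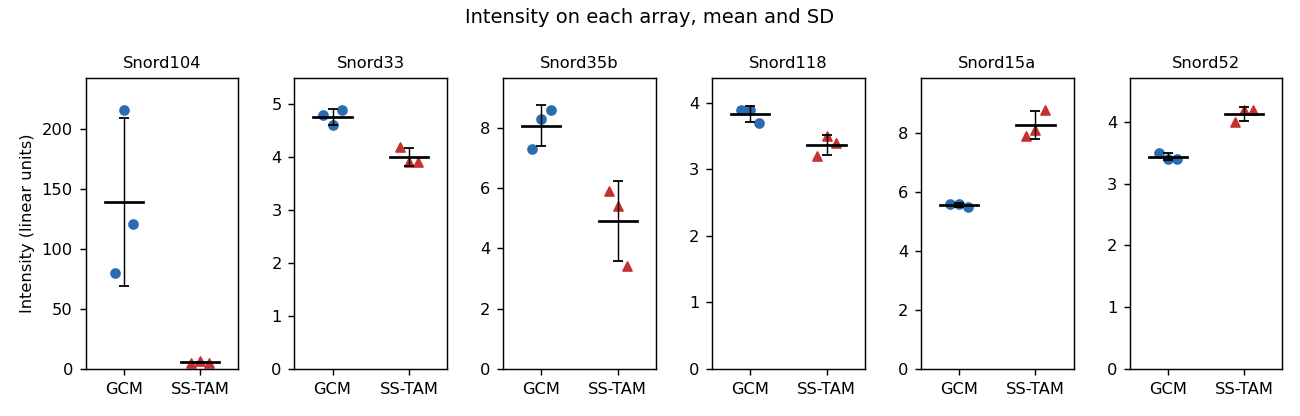
Intensity (linear units, axes from 0) on 3 GCM (blue circles) and 3 SS-TAM (red triangles) arrays of 6 genes whose arrays did not overlap; the thick line is the group mean and the bar its SD. Snord104 drops from 139 to 5.4, whereas the other 5 genes stay between 3.2 and 8.8 on all arrays.

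No measured gene of an RNA known for cleavage of the precursor passed the test. Snord118 (U8), needed for maturation of the large-subunit RNAs, was at 3.2, 3.5 and 3.4 in SS-TAMs and 3.9, 3.9 and 3.7 in GCMs (log2 fold change -0.19, adjusted p = 0.12 from limma). Its 2 probe sets held identical values on all arrays. Snora73a and Snora73b (both U17), needed for the small-subunit RNA, had log2 fold changes of 0.18 and -0.03 (adjusted p = 0.35 and 0.91), and their arrays overlapped. Snord14e, a copy of the processing RNA U14 that lies in Hspa8, was the second brightest gene and the most variable, at 41.1, 11.9 and 9.4 in SS-TAMs and 15.8, 15.1 and 24.4 in GCMs. SS-TAM replicate 1 alone was high, and without it the log2 difference was -0.77 (limma adjusted p = 0.15). Its interval reached from -1.53 to 1.30 on the log2 scale, which takes in 2-fold changes in both directions.

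The other bright members did not pass the test. Snord8 was at 17.2, 23.3 and 17.4 in SS-TAMs and 17.4, 16.2 and 17.6 in GCMs, with a log2 difference of 0.16 (limma adjusted p = 0.46). Snord53, from Wdr43, had a log2 difference of 0.10 (adjusted p = 0.42). Snora3, from Rpl27a, was at 7.4, 8.0 and 13.5 against 8.6, 13.0 and 15.1, and had a log2 difference of -0.36 (adjusted p = 0.48), with an interval from -1.11 to 0.39 that takes in a 2-fold decrease. Its second probe set gave -0.42. The 5 genes with 2 probe sets had values that differed between the pair by at most 0.06 on the log2 fold change scale.

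The called members were all box C/D genes. Among 31 box C/D genes, 1 was lower and 2 were higher, beside 4.76% and 5.16% of all genes, with a median log2 fold change of -0.0044. Among 20 box H/ACA genes, none was lower or higher, with a median of 0.014 and a range from -0.36 to 0.44, and at an unadjusted p under 0.05 none was lower and 1 higher. No test compared the classes.

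Many of the genes that contain members fell, while the members inside them had log2 differences nearer to 0. Most members lay near the floor, where folds understate changes in RNA, so members and hosts are not compared on equal terms. RefSeq places 50 of the 51 genes inside a longer gene, 43 such host genes in all, of which 25 were measured. The table has no strand, so a host may lie on the other strand. Ribosomal protein genes have many near-identical pseudogenes, so that their values are uncertain. Of the 25 host genes, 16 fell in SS-TAMs and none rose, with a median log2 fold change of -1.12. Among 10 ribosomal protein hosts, 9 were lower, with a median of -1.70. There were 19 members inside a host that fell, and of them 0 were lower, 1 (Snord15a) was higher and 18 did not pass. With 4.76% of all genes lower and 5.16% higher, these counts lie near the background. Their log2 fold changes ran from -0.36 to 0.57 with a median of -0.05.

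Several of these hosts belong to the translation machinery. Rps3 was at 95.6, 123 and 133 in SS-TAMs against 416, 539 and 577 in GCMs, a log2 difference of -2.12 (limma adjusted p = 0.0023). This is opposite in sign to Snord15a, which it contains. Rpsa, the ribosomal protein gene that contains Snora62, had the lowest value of the hosts, -2.84, whereas Snora62 had -0.14 (adjusted p = 0.31). Eef1b2, an elongation factor gene, had -1.99 and its Snora41 -0.19. Ncl, which encodes nucleolin, had -1.36, while Snora75 and Snord82 inside it had 0.22 and -0.0044. These hosts, other than Rps3, were named after their values were seen.

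Of the measured hosts of the bright members, all but Chd8 fell. Hspa8, a chaperone gene, had a log2 fold change of -1.0, which turned to 0.27 after quantile normalization, and its Snord14e -0.11, or -0.77 without SS-TAM replicate 1. Wdr43, a ribosome assembly gene, had -0.92 and its Snord53 0.10. Wdr43 no longer passed when an array other than SS-TAM replicate 2 was left out, after quantile normalization or with the replicate block (limma adjusted p up to 0.13). Rpl27a had -1.71 against -0.36 for Snora3, and did not pass after quantile normalization (-0.49, limma adjusted p = 0.19). Gas5, a non-coding gene whose known product is its small nucleolar RNAs, was at 164, 240 and 206 against 484, 551 and 521 (log2 fold change -1.37, adjusted p = 0.0055), while Snord47 inside it had -0.13. The 4 probe sets of Gas5 ranged from -1.37 to -0.02, so its decrease rests on some of them. The host Chd8 of Snord8 had -0.09 (adjusted p = 0.85).

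Members that share a host had values of their own. In Rack1, which encodes a ribosome scaffold protein, Snord95 had a log2 difference of -0.42 and Snord96a of 0.10. In Rpl13a, Snord33 had -0.25 and Snord35a 0.03. In Rpl23a, which had -2.48, Snord42a had 0.10 and Snord42b -0.13. In the non-coding gene Snhg12, Snora44 had 0.25 and Snora16a 0.07. None of these members passed the test, the differences within pairs were not tested, and all were chosen after their values were seen.

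**Figure D3:**
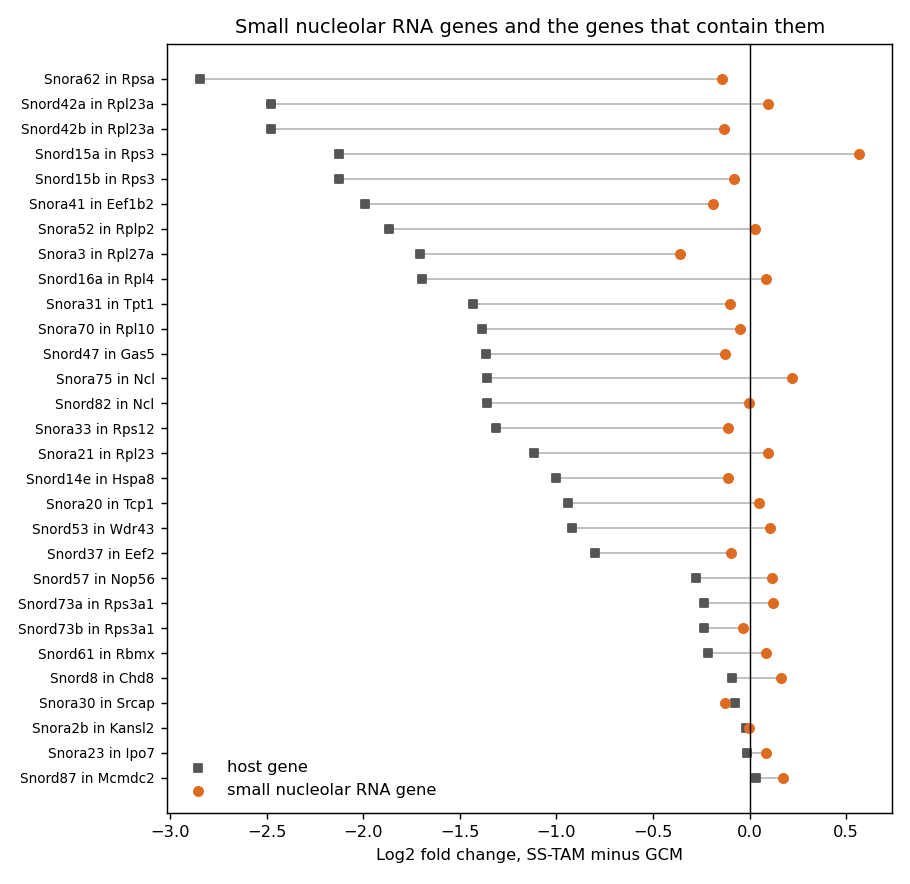
Differences on the log2 scale, SS-TAM minus GCM, for 29 small nucleolar RNA genes (orange circles) and for the gene that contains each (grey squares), sorted by the host. Hosts run from -2.84 to 0.03, while the genes inside them run from -0.36 to 0.57.

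Across these 29 pairs, which share arrays and in part hosts, Pearson's r of the log2 fold changes was 0.18 and Spearman's rho 0.35. Brightness differed between the 2 sides of each pair, since the hosts had a median intensity of 262 and most members lay near the floor. Bright genes as a whole were lower in SS-TAMs. The 119 genes at or above the hosts' median intensity include the brighter hosts themselves. Of these 119 genes, 63 were lower and 19 higher, with a median log2 fold change of -0.98. After quantile normalization, which forces the arrays to one distribution, that median was 0.19, the hosts' median was -0.39, and 9 of 25 hosts were lower. Gas5 lost its call there (log2 fold change -0.14). The members' median was -0.039 there. The part of scaling in the hosts' decrease was not tested.

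Genes of the particle proteins fell in part. Of the 9 particle protein genes, 4 fell in SS-TAMs and none rose, beside 4.76% lower and 5.16% higher among all genes. The 9 genes had a median intensity of 23.15, against 6.6 for all genes. The part of brightness in the decreases was not tested. In box C/D particles, Snu13, which binds the RNA's kink-turn, was at 26.1, 27.8 and 26.5 in SS-TAMs and 44.8, 44.8 and 52.4 in GCMs (log2 fold change -0.82, adjusted p = 0.0041 from limma). Nop58 had a log2 difference of -0.73 (adjusted p = 0.033). Fbl, the methyltransferase fibrillarin, had -0.65 (adjusted p = 0.10), Nop56 had -0.28 (adjusted p = 0.32), and Rrp9, a protein of the U3 particle, had 0.07 (adjusted p = 0.50).

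In box H/ACA particles, Nop10 was at 18.9, 13.9 and 31.8 in SS-TAMs and 121, 98.4 and 74.7 in GCMs (log2 fold change -2.25, adjusted p = 0.015 from limma). Nhp2 was at 10.3, 10.6 and 11.1 against 20.7, 23.6 and 24.2 (log2 fold change -1.10, adjusted p = 0.0016). Neither gene's arrays overlapped between the groups. Dkc1, the pseudouridine synthase dyskerin, had -0.48 (adjusted p = 0.060), and Gar1 had 0.53 (adjusted p = 0.18). Nop58 no longer passed without SS-TAM replicate 3 or any 1 GCM array, nor Nop10 without SS-TAM replicate 1 or GCM replicate 1 or 2 (adjusted p up to 0.13 and 0.073). With the dimmest probe set of each gene, Fbl turned to 0.69 and Snu13 had -0.30 and was not called.

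Of 19 assembly and maturation factors, 1 was lower and none higher, beside 4.76% and 5.16% of all genes, with a median of -0.10. It was Xpo1, an export receptor that also takes part in small nucleolar RNA transport, with a log2 difference of -1.12 (limma adjusted p = 0.0047). Of 39 genes of ribosomal RNA synthesis and processing, 9 were lower and none higher, beside the same shares, with a median of -0.29. They included Taf1d, a component of the RNA polymerase I factor (-2.39), Npm1, the nucleolar chaperone nucleophosmin (-2.18), Polr1d, a polymerase subunit (-1.99), and Imp3, a U3 particle protein (-1.87). Without GCM replicate 2 the count was 5, and Imp3 no longer passed when an array other than SS-TAM replicate 2 was left out (limma adjusted p up to 0.11). By the dimmest probe set Taf1d had 0.31 and Polr1d -0.30, neither called, and by the mean of its probe sets Taf1d had -0.42 and was not called.

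**Figure D4:**
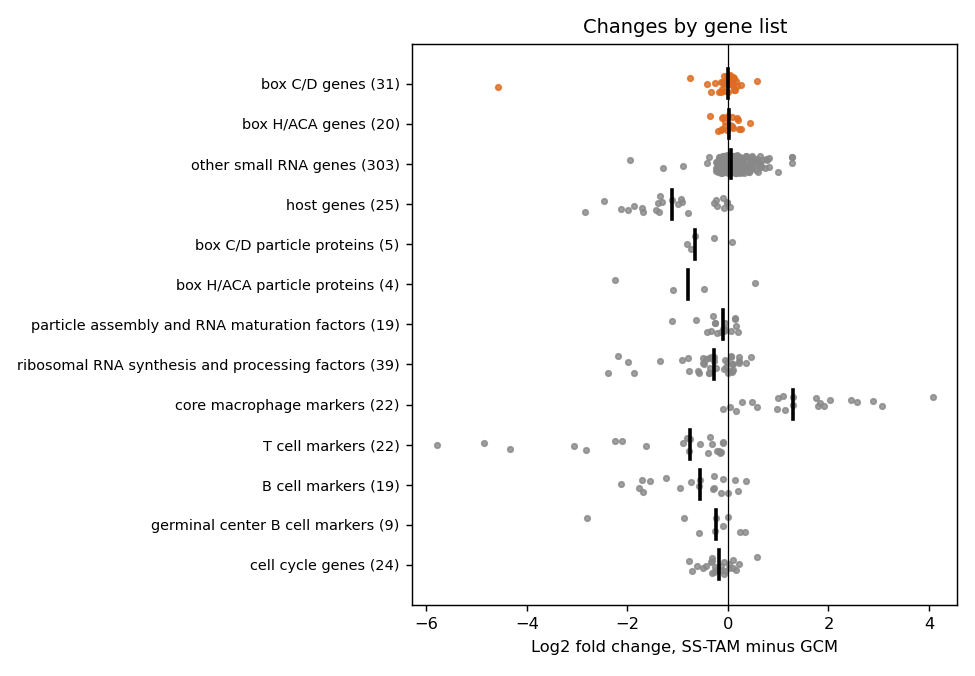
Differences on the log2 scale, SS-TAM minus GCM, for the measured genes in each list, with the number of genes in brackets; each point is 1 gene and each black bar the median of its list. Both small nucleolar RNA classes (orange) have medians within 0.02 of 0, while host genes have a median of -1.12 and core macrophage markers of 1.30.

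Other small RNA genes lay near 0 as well. Of 303 such genes, 291 of them with symbols beginning Mir, 3 were lower and 15 higher, beside 4.76% and 5.16% of all genes. Both totals include Mir100hg, Mir17hg, Mir670hg and Mir99ahg, which are longer host genes of microRNAs and were not called. The median log2 fold change of the 303 genes was 0.063, with 213 genes above 0 and 90 below. Among all genes, 11957 lay above 0 and 7981 below. The 4 called genes with the largest changes were Mir692-1 (-1.94), Rpph1, the RNA of ribonuclease P (-1.30), Mir375 (1.28) and Mir679 (1.26). Rpph1 was at 62.3, 39.1 and 28.7 in SS-TAMs and 95, 106 and 104 in GCMs, and no longer passed when an array other than SS-TAM replicate 1 was left out (limma adjusted p up to 0.15). Mir375 no longer passed without any 1 GCM array (limma adjusted p up to 0.067). Rnu3a, a gene of U3, the box C/D RNA that acts in the first cleavages of the precursor, was at 4.8, 6.1 and 4.3 in SS-TAMs and 6.2, 7.9 and 6.1 in GCMs. Its log2 fold change was -0.42 (adjusted p = 0.19), and the groups touched at 6.1.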

How the data were processed

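Macrophages captured by laser were profiled on 6 Affymetrix arrays, 3 SS-TAM and 3 GCM, 1 mouse each. The authors deposited 28944 probe set intensities, unlogged and rounded to 1 decimal, between 2.4 and 2544. Their processing notes name RMA and limma, and no version is given in the sources used here. The deposited arrays did not share one distribution. Their brightest probe sets began at 242 to 284 on the SS-TAM arrays and at 614 to 664 on the GCM arrays. Whether all 6 arrays were normalized together was not tested, so a difference in processing cannot be told apart from the groups. The silica-column RNA kit named in the labels retains RNAs as short as most mature small nucleolar RNAs poorly, so a low value is no evidence of absence. The deposited intensities were then converted to log2. Probe sets naming several genes (1621) or unnamed here (5534) were left out, symbols were updated by gene ID through RefSeq (21698 matched), and the probe set with the highest mean stood for each of 19938 genes. The comparison used limma 3.58.1 (R 4.3.3) (two-sided, no covariate, Benjamini-Hochberg adjusted p under 0.05). The number of arrays limits the precision, and an exact permutation test of 3 against 3 cannot give a p below 0.1. The fit was tested on simulated data. Hosts are genes whose RefSeq span contains a member, without regard to strand, whereas the design had asked for the same strand. Small RNA, host and pathway lists and the members were chosen with earlier results of these data known. Named genes were up to 12 called decreases and 6 called increases, the 6 brightest members, measured members of a set with known roles (Snord118, Snora73a and Snora73b), hosts of these, all particle proteins, Gas5, Snhg1 and up to 4 called genes of each other list. Alternatives were other scalings, probe set choices, filters, thresholds and fits, and leaving out each array. Marker lists were those of core macrophage, T cell, B cell, germinal center B cell and cell cycle genes.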

Additional observations from a re-analysis of the deposited data

Results flagged for a closer look

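A signal outside the comparisons appeared in 24 probe sets that each name the same 3 genes, and no gene is named from them here. Small nucleolar RNA symbols are among the names. All 24 were higher on every SS-TAM array than on any GCM array, with a median difference of 0.89 on the log2 scale (range 0.46 to 0.94). Their medians were 5.7, 5.9 and 9.0 on the SS-TAM arrays and 3.8, 3.6 and 3.5 on the GCM arrays. Of the 24, 18 held identical values on all arrays and are not separate measurements. These values lie near the floor, and the difference was not tested.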

How the results depend on the processing

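Snord104 stayed lower and past the threshold under every alternative. By quantile normalization, median centring and the intensity trend with robust variances (2 choices changed together), 2 small nucleolar RNA genes were lower, all of them box C/D (2 each), and the second was Snord33. Under quantile normalization, median centring, the filter on dim genes, the replicate block and an adjusted p under 0.01, 1 was higher, and at 2-fold or more 0. Scaled to the core macrophage markers, 51 were lower (31 box C/D and 20 box H/ACA) and 0 higher, as were 25 hosts, 9 particle protein, 19 maturation, 39 ribosomal RNA factor and 300 other small RNA genes, because the median of all genes moved to -1.44. There Snord8, Snord53, Snora73a, Rrp9, Gar1, Snord15a and Snord52 turned to -1.32, -1.38, -1.30, -1.41, -0.95, -0.91 and -1.21, and Mir375 and Mir679 to -0.21 and -0.22. Elsewhere Hspa8 turned to 0.27 (quantile), and Fbl to 0.69 and Taf1d to 0.31 (dimmest probe set). Quantile normalization left 9 hosts lower. At 2-fold or an adjusted p under 0.01, 2 particle protein and 5 ribosomal RNA factor genes were lower. Other small RNA genes lower numbered 6 after median centring, 7 with the trend and robust variances together and 1 at an adjusted p under 0.01. The members' median was -0.063 after median centring, -1.48 scaled to macrophage markers and 0.13 over the 12 members that passed the filter on dim genes. Leaving out 1 array gave 1 to 2 members lower and 1 to 3 higher, 1 to 2 box C/D and 0 to 1 box H/ACA genes lower, 13 to 15 hosts, 2 to 4 particle protein, 5 to 9 ribosomal RNA factor and 1 to 3 other small RNA genes lower, and members' medians of -0.022 to 0.013. Snora62 passed as lower without SS-TAM replicate 2 and Snora7a as higher without SS-TAM replicate 1 (adjusted p = 0.042 and 0.030 from limma). Deviations from the group mean correlated weakly between arrays of equal replicate number (0.092, 0.084 and 0.019 over genes). These values do not show whether such arrays shared a batch. With the replicate block 1321 genes were called against 1978, and Snord104 and Snord15a kept their calls (adjusted p = 0.0081 and 0.031 from limma), while Snord52, Wdr43, Nop58 and Rpph1 lost theirs (0.11, 0.067, 0.091 and 0.075) and Fbl and Dkc1 passed (0.020 and 0.035). After quantile normalization Imp3 and Rpph1 did not pass (0.074 and 0.13) and Dkc1 did (0.030). The cause of each change was not tested.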
